A study of Mus musculus with 8 samples.

Results

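The genes described here are the mouse zinc finger protein genes, those with a symbol made of Zfp and a number. They were chosen by their read totals: a gene was taken when its reads, summed over the 8 libraries of both experiments, came to 400 or more. Of the 370 genes with such a symbol, among 21958 genes in all, 243 met that limit and 127 did not, 23 of them with 0 reads in all libraries. Just inside the limit lay Zfp273 with 404 reads, Zfp109 with 408 and Zfp983 with 411. Just outside it lay Zfp449 with 355 reads, Zfp14 with 343 and Zfp94 with 338. Since the choice used the read totals, the levels of these genes are given as a description without a test.

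RNA was sequenced from bone marrow-derived monocytes (BMDMs) of C57BL/6 mice. All cells received 50 ng/ml M-CSF, which keeps myeloid precursors alive and dividing, and 100 ng/ml RANKL, which drives them to become osteoclasts (OCs), the multinucleate cells that resorb bone. In the first experiment, 2 libraries carried the genotype LysM-Cre;Arid1a fl/fl (cKO), where Cre under the lysozyme M promoter of myeloid cells deletes part of Arid1a, and 2 were labelled only as control. ARID1A is a subunit of the canonical BAF chromatin remodelling complex. In the second, 2 libraries came from wild-type cells treated with JQ1, a small-molecule BET bromodomain inhibitor, and 2 from wild-type controls without it. The JQ1 columns carry codes that were read as treated and untreated, and each JQ1 direction below depends on this; their libraries are called a and b. Hexim1, which commonly rises on BET inhibition, had 106 and 111 CPM (read counts scaled to a common library size by TMM) in the libraries read as treated, against 54.9 and 54.4 CPM in those read as untreated (adjusted p = 3.4e-24 by the edgeR quasi-likelihood test with Benjamini-Hochberg adjustment). The labels do not say whether replicates came from separate animals or cultures, nor how long RANKL was given, so p-values measure only the spread between these libraries.

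A C2H2 zinc finger is a short loop held by a zinc ion that reads a few bases of DNA, and strings of such fingers let a protein recognise a long site. Many mammalian Zfp genes also encode a KRAB box, which binds the co-repressor TRIM28; TRIM28 in turn brings SETDB1 and HP1 proteins that place and read the repressive mark H3K9me3, above all on transposable elements. KRAB zinc finger genes lie in clusters of neighbouring copies, so that near-identical members can share reads. Zfp36 stands apart: its fingers are of the CCCH type and bind AU-rich stretches of mRNA, and it brings the deadenylase that starts mRNA decay.

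Library totals ran from 15108239 to 17302136 reads. Arid1a itself had 126 and 121 CPM in the cKO libraries, against 159 and 229 CPM in the Arid1a controls (log2 fold change -0.65 ± 0.15 SE, adjusted p = 0.0061), and reads outside the deleted exons may remain. Between the 2 libraries of a group, the median size of the log2 ratio over the 243 genes was 0.13 in cKO, 0.18 in the Arid1a controls, 0.14 with JQ1 and 0.15 in the JQ1 controls, and counts of changed genes are also given without single libraries. The 6 osteoclast markers summed to 133 and 120 CPM in cKO, against 322 and 318 CPM in the Arid1a controls, and to 38.4 and 42.8 CPM with JQ1, against 138 and 161 CPM in the JQ1 controls. The 10 neutrophil markers summed to 140 and 117 CPM in cKO, against 29.5 and 20.7 CPM in its controls, with 8 of the 8 tested higher, and to 21.3 and 23.5 CPM with JQ1, against 38.8 and 40.7 CPM in its controls, with 5 of 8 lower. The 6 monocyte and macrophage markers summed to 5181 and 5087 CPM in cKO, against 3694 and 3682 CPM, and to 4268 and 4524 CPM with JQ1, against 4087 and 4040 CPM. In each experiment 3 of these 6 were higher and 1 was lower. The 4 mast cell and basophil markers summed to 9.35 and 11 CPM in cKO, against 2.31 and 1.54 CPM in its controls, with the 1 tested higher, and were under 1 CPM in sum in the JQ1 experiment. The 5 stromal markers summed to 21.4 and 21.8 CPM with JQ1, against 56.6 and 46.5 CPM in its controls, with 4 of 4 tested lower, and to 19.8 and 26.3 CPM in cKO, against 24.8 and 21.2 CPM, with 0 of 3 called. The 4 megakaryocyte markers summed to 79.8 and 83.1 CPM in cKO, against 118 and 88.4 CPM, and to 44.3 and 46.2 CPM with JQ1, against 60.3 and 66.6 CPM, with 0 of 1 tested and 1 of 2 lower. Markers of B, T and NK, and dendritic cells stayed under 2 CPM in sum in every library, with Ncr1, Siglech, Ms4a2 and Gp1bb at 0 throughout. The part of these shifts in the results below was not tested, and in bulk samples fewer cells of a type and less RNA per cell cannot be told apart.

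The zinc finger genes were expressed at low levels. Their totals ran from 404 to 36051 reads with a median of 1773, against a median of 5294 reads for all 9917 genes with 400 or more. Together they took 0.612% and 0.611% of the reads in cKO, 0.554% and 0.607% in the Arid1a controls, 0.534% and 0.542% with JQ1, and 0.539% and 0.528% in the JQ1 controls. The median gene had a mean of 2.84 FPKM (a level scaled by gene length and library total); 217 of the 243 reached a mean of 1 FPKM and 16 reached 10 FPKM. The highest was Zfp207 at 37.6 ± 5.04 FPKM (SD over the 8 libraries), which encodes the spindle protein BuGZ. Zfp710 at 29.4 ± 12.2 FPKM, Zfp263 at 28 ± 10.7, the RNA-binding Zfp106 at 27.1 ± 2.55, Zfp36 at 21.8 ± 13.1 and Zfp146 at 19.9 ± 4.75 FPKM followed. The SD includes differences between the 4 groups, and whether neighbours in this order differ was not tested. All 243 genes passed the filter on low counts in both experiments, and 242 had 10 or more reads in each library. The exception was Zfp462, whose lowest count was 8 reads.

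The proteins fell into 140 with a KRAB box and 103 without one. They carried a median of 11 C2H2 fingers and at most 36, and 6 had none that met the C2H2 pattern, Zfp36 among them. The KRAB genes were the lower expressed, with a median of 2.22 FPKM against 4.22 FPKM for those without the box. They also had a lower GC content (median 41.6% against 49.0%), a shorter gene length as deposited (4471 against 5686 bases) and more fingers (12 against 7). Of the 243 genes, 27 overlap the span of another gene, and whether counting used the strand is not given in the sources used here.

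A short stretch of letters recurred in the promoters of some of these genes. Promoter windows from 250 bases before to 50 bases after the start were found in RefSeq (GRCm38.p6) for 202 of the 243 genes, 247 windows in all. The letters TGAGTGACA, on either strand, stood in 20 of the 247 windows (8.10%), against 0.796% of the 10303 windows of all genes with 400 or more reads and 0.740% of all 32851. They stood in 13.5% of the KRAB windows and in 0.943% of the windows of genes without the box. The stretch was picked after counting all stretches of this length, so these shares are a description. The 17 genes that hold it, 16 of them with a KRAB box, carry it between 237 and 14 bases before the start, in 15 of 17 cases on the strand opposite the gene. The sites of 5 of them are shown to make the shared stretch visible, each 5′ to 3′ with it in capitals; the last 2 are of genes that lie near each other on chromosome 2.
Zfp809, chr9:22225649-22225677, minus strand: tcacagggccTGAGTGACAgtcaaagtca
Zfp866, chr8:69774975-69775003, plus strand: taccaaagccTGAGTGACActagcttcca
Zfp97, chr17:17121258-17121286, minus strand: tagtaaatctTGAGTGACAgggagcaact
Zfp970, chr2:177464643-177464671, minus strand: tattgagtctTGAGTGACAtgagcaccac
Zfp971, chr2:178023176-178023204, minus strand: tattgagtctTGAGTGACAtgagcaccac
The printed bases of Zfp970 and Zfp971 are the same letters. Of the 17 genes, 3 were higher and 0 lower in cKO (Zfp97, Zfp869 and Zfp971), and 2 were higher (Zfp809 and Zfp866) and 1 lower (Zfp958) with JQ1. That is 17.6% of them called in each experiment, below the 34.4% and 39.8% of all genes tested. The cKO calls of Zfp97 and Zfp869 were lost without either cKO library, that of Zfp97 also without Arid1a control replicate 1, and the JQ1 call of Zfp958 without JQ1 control replicate b or either JQ1 library. DESeq2 lost all 3 of these. No value here ties the letters to these changes.

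Other motifs were searched in the same windows on both strands. The CCAAT-type letters CCAATCAGA stood in 8.91% of the zinc finger windows, against 2.55% of those of all genes with 400 or more reads. They stood in 13.5% of the KRAB windows and in 2.83% of the windows of genes without the box, which is near the share of all genes. TTCNNNGAA, the letters that STAT proteins bind, stood in 15.4% against 6.74% (19.1% of KRAB windows and 10.4% of those without the box). The ETS-type letters CCGGAAG, which include the core read by PU.1 and its relatives, stood in 22.3% against 19.4%, and the GC box GGGCGGG in 35.2% against 47.6%. TGANTCA, read by AP-1, stood in 3.64% against 4.96%. A match is a description of the letters only.

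**Figure D1:**
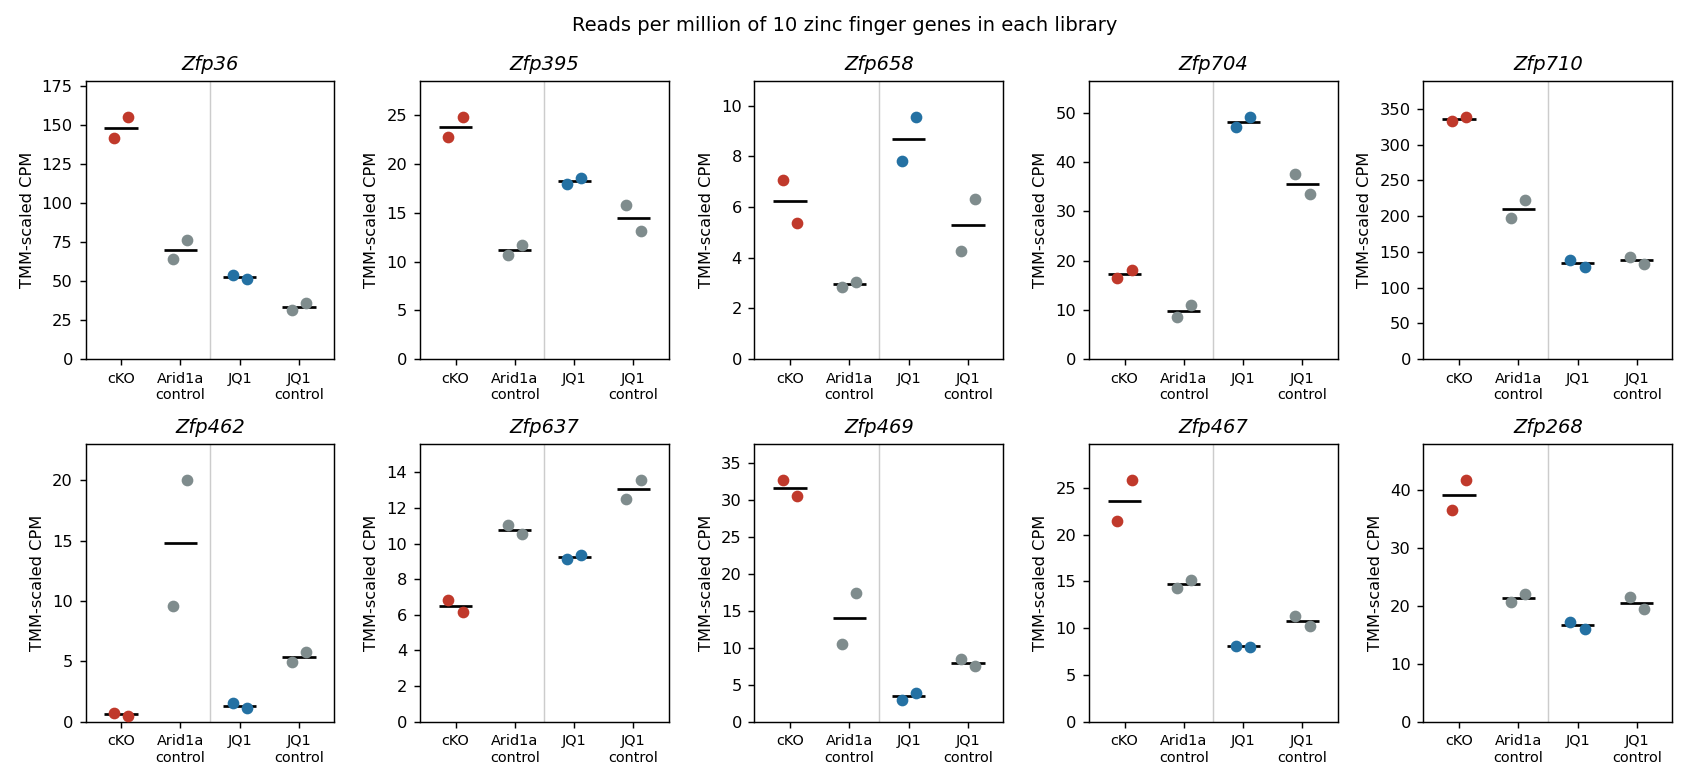
TMM-scaled CPM (y axis, from 0) of 10 zinc finger genes in each library (points) with the mean of each group (bars), for cKO, Arid1a control, JQ1 and JQ1 control from left to right. Zfp36, Zfp395, Zfp658 and Zfp704 lie above their controls in both experiments, Zfp462 and Zfp637 below them in both, and Zfp469 and Zfp467 above in cKO and below with JQ1.

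Loss of Arid1a was followed by higher levels of more zinc finger genes than lower ones. In cKO against the Arid1a controls, 43 of the 243 genes (17.7%) passed an adjusted p of 0.05, against 34.4% of the 11319 genes tested. Higher were 35 (14.4%), against 18.1% of all genes tested, and lower were 8 (3.29%), against 16.3%. The median log2 fold change was 0.12 over the zinc finger genes and 0.00 over all genes tested, and 164 of the 243 lay above 0. The changes were small: the median size, regardless of sign, was 0.19, against 0.27 for all genes with 400 or more reads. Called and at least 2-fold were 5 of the 243, against 8.85% of all genes tested. Called were 15 genes without Arid1a cKO replicate 1, 17 without cKO replicate 2, 53 without Arid1a control replicate 1 and 75 without Arid1a control replicate 2. Among the calls the higher ones were 81.4%, against 52.6% over all genes; with upper-quartile scaling there were 30 higher and 12 lower, and with limma on FPKM 20 and 12.

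The calls were also counted by read total. Among genes with 400 to under 1000 reads, 6 of 72 zinc finger genes (8.33%) were called in cKO, against 25.8% of all genes in that range. With 1000 to under 3000 reads it was 15 of 97 (15.5%) against 27.7%, and with 3000 or more 22 of 74 (29.7%) against 40.2%. The share was below that of all genes in each range. The libraries of the 2 groups did not overlap for 132 of the 243 genes, 100 above and 32 below, against 69.2% of all genes tested.

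**Figure D2:**
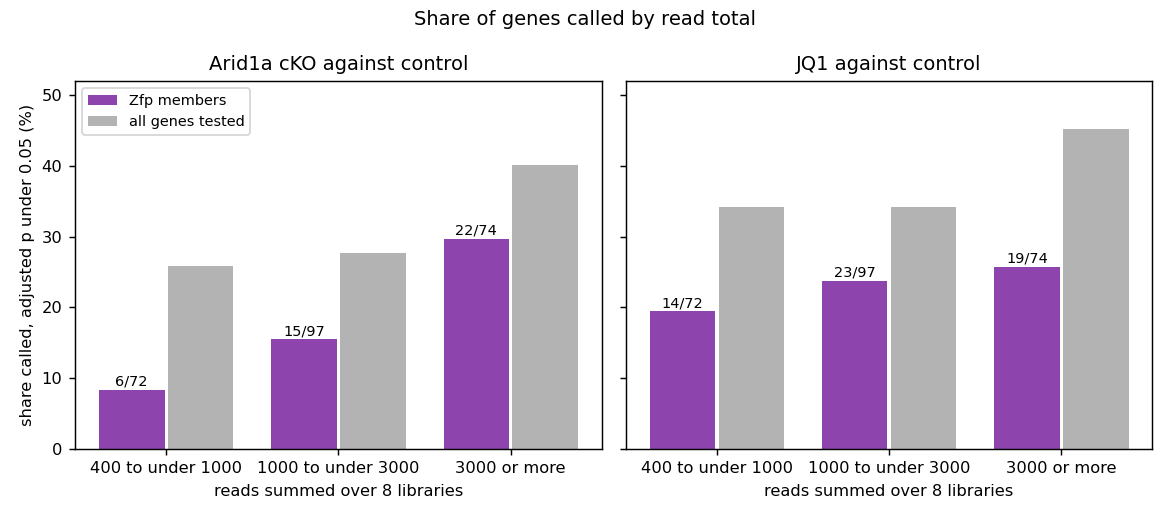
Share of genes called at an adjusted p of 0.05 (y axis, percent, from 0) by reads summed over 8 libraries (x axis), for the zinc finger genes and for all genes tested, in the Arid1a and JQ1 experiments. The zinc finger bars are the lower in each range, at 29.7% against 40.2% in cKO and 25.7% against 45.2% with JQ1 for genes with 3000 or more reads.

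The gene with the best known role in macrophages, Zfp36 (tristetraprolin, ENSMUSG00000044786; GRCm39 chromosome 7, 28076209 to 28079678, minus strand), was higher in cKO. It had 142 and 155 CPM in cKO, against 63.9 and 76.4 CPM in the Arid1a controls, so the groups did not overlap. The log2 fold change was 1.08 ± 0.11, a 2.12-fold difference (adjusted p = 5.2e-05), and the highest adjusted p under 14 alternatives was 0.000523. The 250 bases before its start (RefSeq, GRCm38.p6, chr7:28379229-28379478, minus strand) are shown since Zfp36 was higher in both experiments; capitals mark an ETS-type CCGGAAG from -92 to -86 and a STAT-type TTCTGCGAA from -17 to -9, counted from the start.
Zfp36 promoter: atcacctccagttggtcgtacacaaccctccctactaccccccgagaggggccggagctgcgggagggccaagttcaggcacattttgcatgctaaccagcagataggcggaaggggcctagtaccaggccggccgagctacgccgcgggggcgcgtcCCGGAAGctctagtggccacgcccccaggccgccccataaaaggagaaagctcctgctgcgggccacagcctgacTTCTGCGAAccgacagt

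Of the genes higher in cKO, Zfp469, whose human counterpart is mutated in brittle cornea syndrome, changed the most. It had 32.7 and 30.6 CPM in cKO, against 10.5 and 17.4 CPM in the controls (log2 fold change 1.18 ± 0.20, adjusted p = 0.0012). Zfp395 had 22.8 and 24.8 CPM, against 10.7 and 11.7 CPM (1.09 ± 0.15, adjusted p = 0.00026). Zfp704, its relative with 1 C2H2 finger by the pattern as well, had 16.5 and 18.1 CPM, against 8.46 and 11 CPM (0.83 ± 0.17, adjusted p = 0.0042). In each of these the lower cKO library lay above the higher control. The KRAB gene Zfp658 had 7.06 and 5.38 CPM, against 2.86 and 3.02 CPM (1.08 ± 0.25, adjusted p = 0.0081), and Zfp268, with 20 fingers, 36.5 and 41.7 CPM against 20.6 and 22 CPM (0.88 ± 0.13, adjusted p = 0.00044). The KRAB genes, Zfp873 (0.82 ± 0.26, adjusted p = 0.035) and Zfp429 (0.79 ± 0.20, adjusted p = 0.011), followed.

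Further members were higher by less. Zfp710, among the most highly expressed, had 333 and 338 CPM in cKO, against 198 and 222 CPM in the controls (log2 fold change 0.68 ± 0.09, adjusted p = 0.00027). Zfp362 had 42.8 and 42.6 CPM, against 27.0 and 26.8 CPM (0.67 ± 0.11, adjusted p = 0.0011). Zfp467, which in marrow stromal cells favours the fat over the bone lineage, had 21.4 and 25.8 CPM, against 14.3 and 15.2 CPM (0.68 ± 0.15, adjusted p = 0.0053). In all 3 the cKO libraries were the higher. Zfp217, a partner of the LSD1-CoREST repressor, had 87.5 and 89.7 CPM, against 57.6 and 74.3 CPM (0.43 ± 0.13, adjusted p = 0.025). Zfp608 (0.54 ± 0.14, adjusted p = 0.012) and Zfp638, which silences unintegrated retroviral DNA (0.34 ± 0.10, adjusted p = 0.024), were also higher.

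Of the 8 genes lower in cKO, Zfp462 fell by far the most. It encodes a large protein, with 34 fingers by the pattern, that works with the H3K9 methyltransferases G9a and GLP in mouse embryonic stem cells. It lies on GRCm39 chromosome 4, 54945048 to 55083563. Its counts were 12 and 8 reads in cKO, against 157 and 311 reads in the controls, or 0.743 and 0.513 CPM against 9.56 and 20.0 CPM (log2 fold change -4.53 ± 0.44, adjusted p = 3.0e-05). The controls differed between themselves, yet both stood far above the cKO libraries. Zfp637 had 6.81 and 6.15 CPM in cKO, against 11 and 10.6 CPM (-0.73 ± 0.18, adjusted p = 0.01), and the KRAB gene Zfp948 had 21.5 and 18.6 CPM, against 31.8 and 28.1 CPM (-0.58 ± 0.14, adjusted p = 0.0079). The other 5 were Zfp692 (-0.45), Zfp131 (-0.42), Zfp706 (-0.39), the nucleolar Zfp330 (-0.37) and Zfp207 (-0.28), which had 242 and 245 CPM in cKO, against 292 and 301 CPM. Zfp948 was the 1 KRAB gene among the 8.

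Of the 43 calls in cKO, 7 held under each of 14 alternatives: Zfp36, Zfp268, Zfp362, Zfp395, Zfp462, Zfp469 and Zfp710. Without cKO replicate 1 the calls of Zfp658, Zfp429 and Zfp608 were lost (adjusted p = 0.089, 0.095 and 0.13), and without cKO replicate 2 those of Zfp637, Zfp948 and Zfp467 (adjusted p = 0.081, 0.11 and 0.084). Zfp873, Zfp207, Zfp217, Zfp638, Zfp692, Zfp131, Zfp706 and Zfp330 lost theirs without either cKO library, Zfp873 also without Arid1a control replicate 2 and Zfp330 also without control replicate 1. Those of Zfp704, Zfp608, Zfp217 and Zfp638 were lost with limma on FPKM, that of Zfp638 also with length and GC offsets, and those of Zfp873, Zfp692 and Zfp330 with DESeq2.

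With JQ1, zinc finger genes moved in both directions. Against the JQ1 controls 56 of the 243 genes (23.0%) were called, against 39.8% of the 11352 genes tested: 33 higher (13.6%), against 19.3% of all, and 23 lower (9.47%), against 20.5%. The median log2 fold change was 0.05, against 0.00 over all genes tested, with 143 of the 243 above 0. The median size was 0.18, against 0.19 for all genes with 400 or more reads. Of the 243, 2 called genes, Zfp462 and Zfp469, reached 2-fold, against 6.99% of all genes tested. By read total, 14 of 72 (19.4%), 23 of 97 (23.7%) and 19 of 74 (25.7%) were called, against 34.2%, 34.1% and 45.2% of all genes in the same ranges. The groups did not overlap for 139 genes, 80 above and 59 below, against 68.4% of all genes tested.

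The JQ1 count depended on the method. DESeq2 called 18 genes, 13 higher and 5 lower, and 26 were called without JQ1 replicate a and 27 without JQ1 replicate b. The split turned with the scale: limma on FPKM called 10 higher and 19 lower, and offsets for length and GC content gave 54 and 14. Under these offsets the median over all genes rose as well, to 0.10.

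Higher with JQ1 were several genes of known function. Zfp36 had 53.9 and 51.6 CPM with JQ1, against 31.4 and 35.6 CPM in the JQ1 controls (log2 fold change 0.65 ± 0.09, adjusted p = 1.2e-09). Zfp809, the KRAB protein that brings TRIM28 to the primer binding site of murine leukaemia virus, had 21.2 and 23.9 CPM, against 16.2 and 12.5 CPM (0.66 ± 0.13, adjusted p = 1.4e-05). Zfp703, a co-repressor of the NET family, had 34.5 and 31.6 CPM, against 20.8 and 24.1 CPM (0.56 ± 0.11, adjusted p = 8.1e-06). The groups did not overlap in any of the 3. Zfp318, which shapes IgD transcripts in B cells, had 43.1 and 46.0 CPM, against 32.2 and 33.4 CPM (0.44 ± 0.09, adjusted p = 5.2e-05). Zfp746, the Parkin substrate PARIS, was higher by 0.41 (adjusted p = 0.00099).

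The largest increases with JQ1 were those of Zfp619, Zfp839 and Zfp658. The KRAB gene Zfp619 had 6.61 and 7.07 CPM with JQ1, against 3.94 and 3.57 CPM (log2 fold change 0.86 ± 0.23, adjusted p = 0.0012), and Zfp839 had 18.5 and 18 CPM, against 11.3 and 10.4 CPM (0.75 ± 0.14, adjusted p = 5.5e-06). Zfp658 had 7.81 and 9.54 CPM, against 4.25 and 6.31 CPM (0.72 ± 0.20, adjusted p = 0.0022). In all 3 both treated libraries lay above both controls. Zfp438 (0.62, adjusted p = 0.044) and Zfp113 (0.58, adjusted p = 0.017) followed with more spread. Zfp106, with 285 and 296 CPM against 270 and 258 CPM, passed the test with a difference of 0.14 (adjusted p = 0.026).

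Among the genes lower with JQ1, Zfp462 and Zfp469 led. Zfp462 had 1.54 and 1.12 CPM with JQ1, against 4.94 and 5.73 CPM (log2 fold change -2.01 ± 0.32, adjusted p = 8.1e-08). Zfp469 had 3.0 and 3.95 CPM, against 8.45 and 7.58 CPM (-1.20 ± 0.22, adjusted p = 4.2e-06). Both thus had clearly fewer reads in each treated library, and Zfp462 met the read limit only through control libraries. The next 7 were all KRAB genes, with 408 to 1483 reads in total: Zfp109 (-0.96, adjusted p = 0.014), Zfp976 (-0.83, adjusted p = 0.0058), Zfp983 (-0.80, adjusted p = 0.028), Zfp560 (-0.76, adjusted p = 0.0057), Zfp947 (-0.76, adjusted p = 0.027), Zfp7 (-0.68, adjusted p = 0.011) and Zfp324 (-0.66, adjusted p = 0.00049). Zfp324 was the best measured of them, with 8.61 and 7.48 CPM against 13.1 and 12.3 CPM. Zfp7 overlaps another gene, Gm49527.

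Of the 56 JQ1 calls, 11 held under each of 14 alternatives: Zfp36, Zfp324, Zfp422, Zfp462, Zfp469, Zfp619, Zfp703, Zfp715, Zfp809, Zfp839 and Zfp866. Limma on FPKM lost the calls of Zfp318 (adjusted p = 0.051) and Zfp704 (adjusted p = 0.062), and among the other genes named those of Zfp746, Zfp438, Zfp113, Zfp106, Zfp395, Zfp983 and Zfp7. DESeq2 lost the calls of Zfp658, Zfp438, Zfp113, Zfp106, Zfp395, Zfp637 and Zfp467 and, among the KRAB genes named as lower, all but Zfp324. Without JQ1 replicate b the calls of Zfp658, Zfp109, Zfp976 and Zfp560 were lost, and also those of Zfp438, Zfp113, Zfp106, Zfp395, Zfp637, Zfp467, Zfp983 and Zfp947. Without JQ1 replicate a those of Zfp746, Zfp438, Zfp106, Zfp395, Zfp637, Zfp467, Zfp983, Zfp947 and Zfp7 were lost. Without JQ1 control replicate a those of Zfp658, Zfp109, Zfp976, Zfp113, Zfp467 and Zfp947, and without control replicate b those of Zfp109, Zfp330, Zfp438, Zfp106, Zfp395, Zfp637, Zfp983 and Zfp7, were lost.

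**Figure D3:**
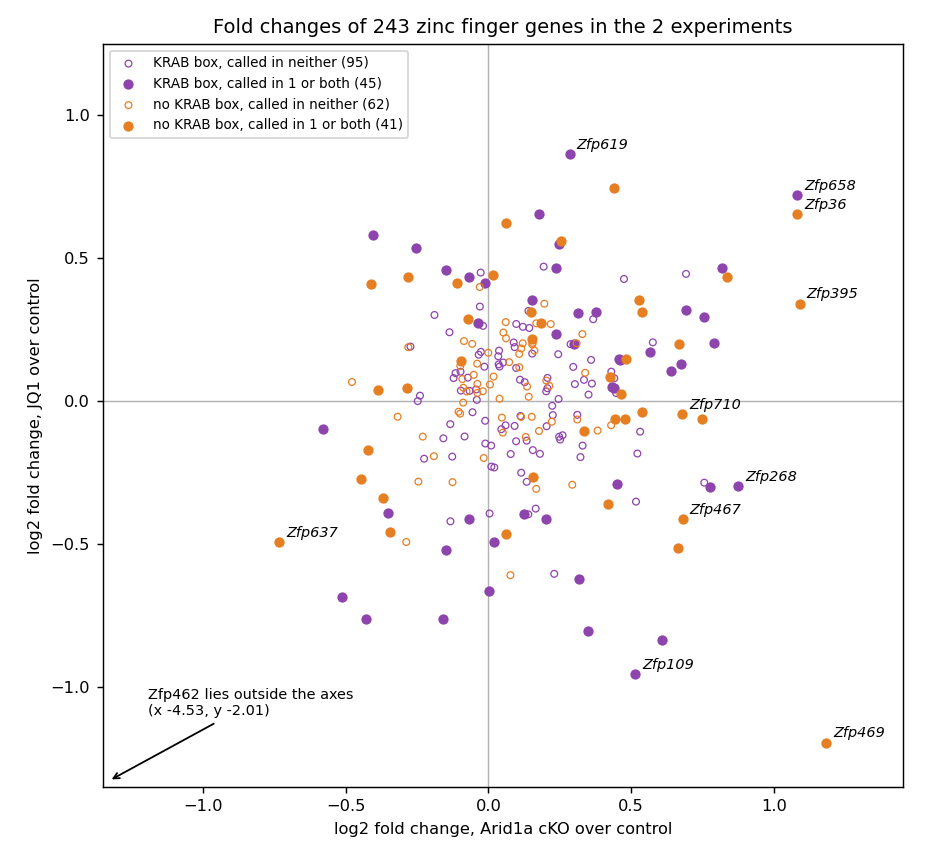
Log2 fold change in cKO over the Arid1a controls (x axis) against that with JQ1 over the JQ1 controls (y axis) for the 243 zinc finger genes, with KRAB genes and others in different colours and genes called in 1 or both experiments filled. Zfp36, Zfp395 and Zfp658 lie high in both and Zfp469 high in cKO and low with JQ1, while Zfp462, at -4.53 and -2.01, falls outside the axes.

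The experiments share no library, so their values for each gene could be set side by side. Called in both were 13 genes (5.35%), against 1992 of the 10987 genes tested in both (18.1%). Higher in both were 7 (Zfp36, Zfp62, Zfp395, Zfp646, Zfp658, Zfp704 and Zfp715), and lower in both were 3 (Zfp330, Zfp462 and Zfp637). Higher in cKO and lower with JQ1 were Zfp236, Zfp467 and Zfp469. The 3 that went opposite ways are 23.1% of the 13, against 37% of all genes called in both. Of these, Zfp330, Zfp236 and Zfp715 lost the cKO call without either cKO library or Arid1a control replicate 1, Zfp62 without cKO replicate 1 and Zfp646 without cKO replicate 2. With JQ1 Zfp62 and Zfp646 lost the call without JQ1 replicate b, and Zfp236 without JQ1 replicate a or JQ1 control replicate a. DESeq2 lost the cKO calls of Zfp330, Zfp236 and Zfp715 and, beside the JQ1 calls already named, that of Zfp236. A further 30 were called in cKO alone, 43 with JQ1 alone and 157 in neither. Over the 243 genes the fold changes had a Pearson r of 0.33 and a Spearman rho of 0.11, and without Zfp462 r was 0.09. Over all genes tested in both r was -0.06; genes are not independent replicates.

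The difference between the responses (JQ1 minus cKO, each against its own controls) was tested in 1 fit over all 8 libraries. It was called for 30 of the 243 genes (12.3%), against 28.3% of the 11767 genes tested. It was above 0 for 8 (3.29%), against 12.5% of all, and below 0 for 22 (9.05%), against 15.8%. The count was 50 without Arid1a control replicate 2, 12 without cKO replicate 1, 11 without cKO replicate 2, and between 10 and 17 without any 1 of the JQ1 or JQ1 control libraries. DESeq2 called 14. Offsets for length and GC content gave 27 above and 11 below 0, with the median over all genes at 0.18 in place of 0.02. Upper-quartile scaling gave 10 and 17, and no filter 13 and 22.

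Zfp469 differed the most in the negative direction, by -2.38 ± 0.31 (adjusted p = 2.6e-05). Zfp976 (-1.44 ± 0.33, adjusted p = 0.0037), Zfp358 (-1.17 ± 0.27, adjusted p = 0.0039), Zfp268 (-1.17 ± 0.17, adjusted p = 8.2e-05), Zfp467 (-1.09 ± 0.21, adjusted p = 0.001) and Zfp710 (-0.72 ± 0.11, adjusted p = 0.00011) did so too, and these 6 held under each of 16 alternatives. With JQ1 Zfp268 had 17.2 and 16.0 CPM, against 21.5 and 19.4 CPM in its controls (-0.30, adjusted p = 0.051). Zfp710 had 139 and 129 CPM, against 142 and 134 CPM (-0.05, 95% interval -0.17 to 0.08). That interval lies below the change of Zfp710 in cKO. Zfp36 differed by -0.42 ± 0.14 (adjusted p = 0.038), a call that DESeq2, upper-quartile scaling and offsets for length and GC content lost, as did leaving out either cKO, either JQ1 or JQ1 control replicate b (highest adjusted p = 0.18). In the positive direction Zfp462 differed by 2.52 ± 0.64 (adjusted p = 0.0079), on 8 to 23 reads in the cKO and JQ1 libraries, and this call was lost with limma-voom and without cKO replicate 2 or JQ1 replicate a (highest adjusted p = 0.068).

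The calls were counted in KRAB genes and in the others. Of the 140 KRAB genes 16 were higher and 1 lower in cKO (12.1% called), and of the 103 others 19 were higher and 7 lower (25.2%), against 34.4% of all genes tested. Their median log2 fold changes were 0.14 for KRAB genes and 0.11 for the others, with 99 of 140 and 65 of 103 above 0. With JQ1, 16 KRAB genes were higher and 14 lower (21.4% called, median 0.05), and 17 others higher and 9 lower (25.2%, median 0.05), against 39.8% of all. Relative to all genes tested, the KRAB median stayed between 0.13 and 0.17 in cKO and between 0.03 and 0.08 with JQ1 over all settings tried, though by itself the JQ1 median of KRAB genes was -0.01 with limma on FPKM. That of the others ran from 0.05 to 0.14 in cKO and from 0.03 to 0.08 with JQ1. The cKO medians themselves were 0.10 for KRAB genes and 0.00 for the others with length and GC offsets, and 0.14 and 0.06 without Arid1a control replicate 1. The difference between the classes was not tested, and KRAB genes had fewer reads (median 1332 against 3255).

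By number of fingers, the 35 genes with 0 to 4 C2H2 fingers had 12 higher and 1 lower with JQ1 (37.1% called, near the 39.8% of all genes tested), at a median log2 fold change of 0.20, and 5 higher and 3 lower in cKO (22.9%, against 34.4%). The 67 genes with 5 to 9 fingers had 6 higher and 3 lower in cKO (13.4%), and 9 higher and 7 lower with JQ1 (23.9%). The 81 genes with 10 to 14 fingers had 15 higher and 0 lower in cKO (18.5%), and 5 higher and 6 lower with JQ1 (13.6%). The 60 genes with 15 or more had 9 higher and 2 lower in cKO (18.3%), and 7 higher and 9 lower with JQ1 (26.7%). Those with few fingers were also the most highly expressed, at a median of 5.17 FPKM, and had most reads (median 3986).

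Neighbouring genes were then grouped. With clusters defined as 5 or more of these genes whose starts lie within 1 Mb of the next, 14 clusters held 113 genes. The clustered genes had 14 higher and 1 lower in cKO (13.3% called) and 12 higher and 14 lower with JQ1 (23.0%). The 130 others had 21 higher and 7 lower in cKO (21.5%) and 21 higher and 9 lower with JQ1 (23.1%). All 4 shares lay below the 34.4% and 39.8% of all genes tested. The largest cluster (GRCm39 chromosome 17, 21229165 to 23783212) held 21 KRAB genes, Zfp160 to Zfp213. In cKO 5 of them were higher (Zfp677, Zfp758, Zfp943, Zfp944 and Zfp946) and 1 was lower (Zfp948), 28.6% of the cluster, with a median of 0.29 and 16 above 0. With JQ1 1 was higher (Zfp942) and 6 were lower (Zfp40, Zfp51, Zfp229, Zfp947, Zfp983 and Zfp995), 33.3% of the cluster, with a median of -0.13 and 8 above 0. The JQ1 split turned with offsets for length and GC content, which gave 3 higher and 2 lower at a median of -0.02. Over all settings the cluster's median stayed between 0.10 and 0.29 in cKO and between -0.22 and -0.02 with JQ1, but DESeq2 made 0 of its JQ1 calls, as did the fits without either JQ1 library. In cKO 1 was higher and 1 lower without cKO replicate 1, and 2 were higher and 0 lower without cKO replicate 2. A cluster on chromosome 13 (67269724 to 67975121) of 10 KRAB genes, Zfp759 to Zfp273, had 1 call in cKO, Zfp429, and 0 with JQ1.

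**Figure D4:**
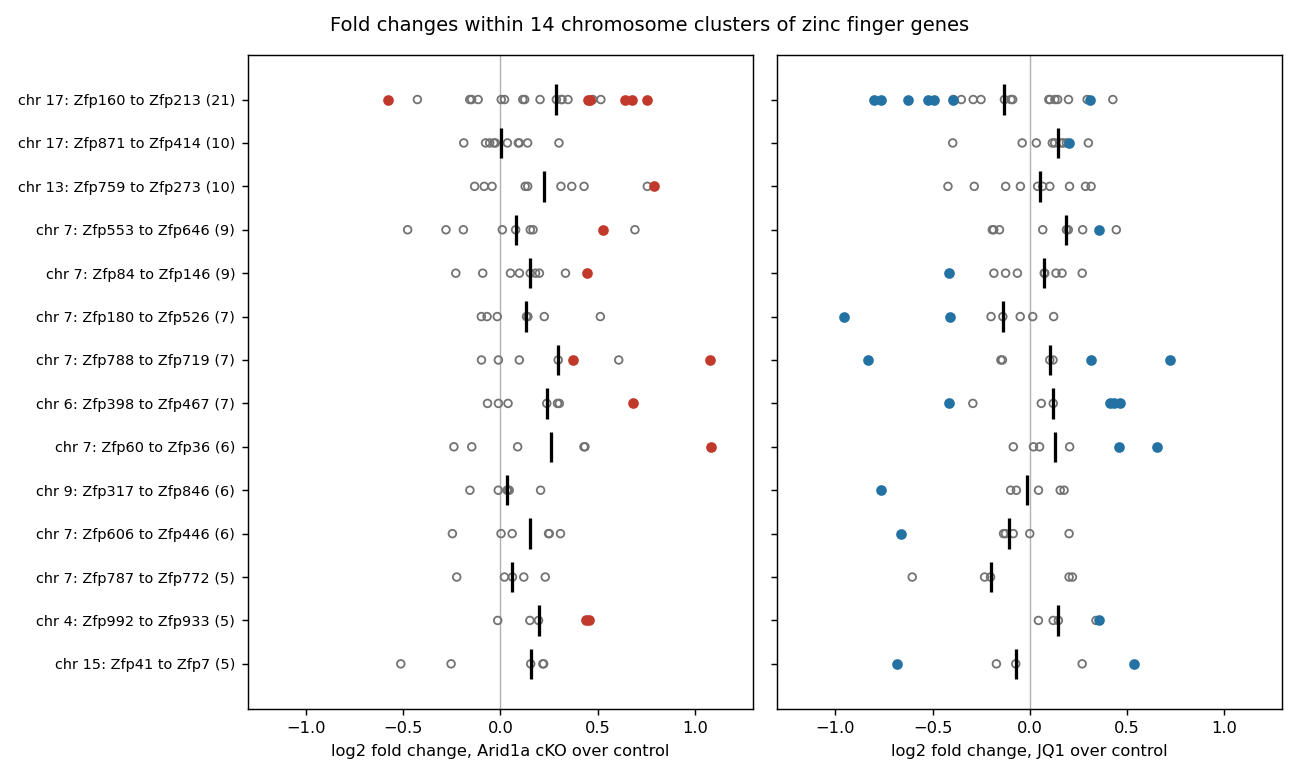
Log2 fold changes (x axes) of the genes of 14 chromosome clusters (rows, with the number of genes) in cKO over the Arid1a controls on the left and with JQ1 over the JQ1 controls on the right; filled points are called genes and bars are medians. The 21 genes of the largest cluster, in the top row, have a median of 0.29 in cKO and -0.13 with JQ1.

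Many members with well studied roles were called in neither experiment. These included the promoter and loop factor Zfp143, with log2 fold changes of -0.02 in cKO (95% interval -0.24 to 0.20) and 0.03 with JQ1 (-0.19 to 0.26), and the imprinting factor Zfp445, at 0.25 (-0.01 to 0.50) and 0.01 (-0.13 to 0.14). Zfp568, which silences a placental Igf2 promoter, stood at 0.05 (-0.38 to 0.49) and 0.14 (-0.13 to 0.40). Zfp598, the ubiquitin ligase that senses collided ribosomes, stood at 0.00 (-0.21 to 0.21) in cKO. For the ubiquitin ligase Zfp91, among the most highly expressed, the intervals were -0.17 to 0.18 and -0.06 to 0.17. Zfp91 overlaps Gm44505.

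The partners of KRAB proteins were counted in both experiments. Of 18 co-repressor genes 4 were higher and 2 lower in cKO (33.3%), near the 34.4% of all genes tested and below the 40.2% of genes with 3000 or more reads. With JQ1 7 were higher and 3 lower (55.6%), against 39.8% of all and 45.2% of genes with 3000 or more reads. Trim28, the KRAB partner itself, had 176 and 172 CPM in cKO, against 253 and 226 CPM (log2 fold change -0.46 ± 0.09, adjusted p = 0.0035), and 201 and 190 CPM with JQ1, against 171 and 174 CPM (0.18 ± 0.06, adjusted p = 0.0068). It was thus lower in cKO and higher with JQ1. Chd3, of the NuRD complex, went the other way: 149 and 150 CPM in cKO, against 62.4 and 72.8 CPM (1.14 ± 0.11), and 55.7 and 48.1 CPM with JQ1, against 75.1 and 71.0 CPM (-0.50 ± 0.08). Setdb1, the methyltransferase, was called in neither. The cKO count of this list was 3 without cKO replicate 1, 12 without Arid1a control replicate 1, 10 without control replicate 2, and 11 with length and GC offsets. The JQ1 count was 5 without JQ1 replicate a and 6 without JQ1 control replicate b.

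Around Zfp36, its relative Zfp36l2 had 275 and 280 CPM with JQ1, against 207 and 212 CPM (log2 fold change 0.40), and Zfp36l1 was called in neither experiment. Of 11 genes of the decay machinery, Cnot6l, Dcp2 and Xrn1 were higher and Cnot7 lower in cKO (36.4%, near the 34.4% of all genes tested) and 0 were called with JQ1, against 39.8% of all. Of 12 genes whose mRNAs carry AU-rich elements, 9 were tested in cKO, 4 higher and 2 lower (66.7%, against 34.4% of all genes tested), and 7 with JQ1, 2 higher and 2 lower (57.1%, against 39.8%). Cxcl2 had 61.3 and 65.4 CPM in cKO, against 13.8 and 17.8 CPM (2.00 ± 0.14). Ccl2 was lower in both, by -0.51 in cKO and -0.54 with JQ1, and Ier3 was lower in cKO (-0.80) and higher with JQ1 (0.78). Tnf, the classic target of tristetraprolin, had 51.5 and 45.2 CPM in cKO, against 44.1 and 38.2 CPM (0.23, adjusted p = 0.17), and was higher with JQ1 (0.30 ± 0.09, adjusted p = 0.0065). The relatives, the decay machinery and the AU-rich genes together form the Zfp36 list of 25 genes. Of its 22 genes tested in cKO, 7 were higher and 3 lower (45.5%, against 34.4% of all genes tested). With JQ1 3 of 20 tested were higher and 2 lower (25%, against 39.8%). Without cKO replicate 2 the cKO count of this list was 6 in place of 10, and with length and GC offsets the JQ1 count was 10 in place of 5.

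Other zinc finger families were counted in the same way. Of 117 genes of the Zbtb, Zkscan, Zscan and Klf families and Zfp genes with a letter in the symbol, 15 were higher and 2 lower among 86 tested in cKO (19.8%, below the 34.4% of all genes tested), and 12 were higher and 8 lower among 85 with JQ1 (23.5%, below 39.8%). The Zbtb genes had 8 higher and 0 lower in cKO, and 4 higher and 4 lower with JQ1 (21.6% called in each). Called in cKO were 7 without cKO replicate 1, 8 without cKO replicate 2 and 31 without Arid1a control replicate 2, and with JQ1 13 without JQ1 replicate a and 12 without replicate b. DESeq2 called 11 in cKO and 7 with JQ1.

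In the study's list of genes near super-enhancers, the large enhancer clusters of cell identity genes, 3 of the 243 appear: Zfp36, Zfp217 and Zfp462. The first 2 are also on the study's list of such genes occupied by ARID1A. Zfp36 was higher in both experiments, Zfp217 was higher in cKO and had a log2 fold change of 0.08 with JQ1 (adjusted p = 0.42), and Zfp462 was lower in both.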

How the data were processed

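Bulk RNA-seq of 8 libraries in 4 groups of 2 was analysed. According to the methods, the authors trimmed reads with Cutadapt, aligned them to GRCm39 with HISAT2 and counted them with HTSeq. The deposited files give raw counts for each gene, and FPKM, which the authors scaled by gene length and library total; gene length in bases is another column deposited by the authors. How the strand was set, which reads were filtered and which annotation release served is not given in the sources read. FPKM was computed from the counts in the same way for all 8 libraries. For the Arid1a experiment it differed from the deposited FPKM by at most 0.0012. The deposited Arid1a FPKM served only for this check, and 4 per-sample columns were not used. Columns of the authors' own comparisons (fold changes and p-values) were not used. The 51 rows without a symbol held 0.0121% of the reads; they have gene IDs and stayed in the fits.

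Each experiment was fitted over all genes with its own controls in edgeR 4.0.16 under R 4.3.3 (filterByExpr, TMM, robust quasi-likelihood F test). Benjamini-Hochberg adjustment ran over every gene tested, with calls at an adjusted p under 0.05. The SE was the log2 fold change over the root of F. The procedure was also run on simulated counts drawn with the same relative spread for all genes, a simpler setting than these data. The difference between the responses was an interaction in 1 fit. A KRAB box was found with a profile built from 112 of the proteins by pyhmmer 0.12.3 (E value 1e-05) and fingers by a pattern, on proteins translated from the longest coding sequence in GENCODE M39; 121 genes carry the deposited KEGG class of KRAB zinc fingers, and the profile gave the same answer for 208 of 243. No SCAN class was made.

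Alternatives were DESeq2 1.42.0, its size factors, upper-quartile factors, limma 3.58.1 (voom, and trend on log2 of FPKM plus 0.1), no filter, a stricter filter of 50 reads in 2 libraries, 1 fit over 8 libraries, offsets for length and GC content, a replicate block, a 2-fold limit, and leaving out each library. The genes and lists were chosen with earlier results of these data known. The genes named were, in each experiment, the 8 largest changes among called genes in either direction, the 6 with the highest mean FPKM, the 6 with the smallest p for the difference in each direction, the 3 on either side of the read limit, a list with known roles, and those on the study's super-enhancer list. Others were picked after their values were seen: calls held under all alternatives, calls shared by both experiments, genes of the largest cluster and genes with the shared promoter letters.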

Additional observations from a re-analysis of the deposited data

Results flagged for a closer look

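Of the 57 zinc finger genes named by the rule above, 18 differed between the response to JQ1 and that to loss of Arid1a. The test was the interaction test of edgeR (adjusted p under 0.05). The rule took genes partly by the p-value of this difference, so their number reflects the choice. Over all 243 genes the share called was 12.3%, against 28.3% of the 11767 genes tested. The values are the JQ1 log2 fold change minus that of cKO. Below 0 were Zfp469 (-2.38), Zfp109 (-1.47), Zfp976 (-1.44), Zfp358 (-1.17), Zfp268 (-1.17), Zfp467 (-1.09), Zfp395 (-0.75), Zfp710 (-0.72), Zfp608 (-0.58), Zfp638 (-0.44) and Zfp36 (-0.42). Above 0 were Zfp462 (2.52), Zfp511 (0.82), Zfp523 (0.72), Zfp948 (0.48), Zfp706 (0.43), Zfp746 (0.42) and Zfp207 (0.33). Zfp511 overlaps Tubgcp2. Of these, Zfp268, Zfp358, Zfp467, Zfp469, Zfp710 and Zfp976 held under all 16 alternatives. Each of the other 12 lost the call when at least 1 library was left out, Zfp948 for 7 of the 8 libraries.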

How the results depend on the processing

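With 2 libraries a group, depth and spread limited small changes of genes with few reads, and the median SE over the zinc finger genes was 0.16 in cKO and 0.14 with JQ1. Leaving out a library leaves its partner alone, and the fit then takes the spread of the other group's pair for both. Over single libraries left out, the number of zinc finger genes called ran from 15 to 75 in cKO, from 26 to 40 with JQ1 and from 10 to 50 for the difference. For the co-repressor list it ran from 3 to 12 in cKO and from 5 to 9 with JQ1, for the other zinc finger families from 7 to 31 and 12 to 15, and for the Zfp36 list from 6 to 15 and 4 to 6. At least 2-fold as well were 5 zinc finger genes in cKO, 2 with JQ1 and 8 for the difference. Over all genes tested the shares were 8.85%, 6.99% and 10.3%. In the lists it was 1 and 0 co-repressors, 3 and 2 of the other families, and 2 and 1 of the Zfp36 list (cKO, then JQ1). DESeq2 called 18 zinc finger genes with JQ1 and 14 for the difference. Of the other families it called 11 in cKO and 7 with JQ1. Of the calls reported, DESeq2 kept 30 of 43 in cKO, 18 of 56 with JQ1 and 14 of 30 for the difference. With JQ1, 1 fit over 8 libraries called 29 and limma on FPKM 29. Length and GC offsets called 11 co-repressors in cKO and 10 of the Zfp36 list with JQ1. The stricter KRAB pattern left 74 of the 140 genes. All 43 calls in cKO kept their sign under each alternative. Zfp292, called in neither experiment, had a log2 fold change of 0.11 in cKO with all libraries, -0.22 without Arid1a control replicate 1 and 0.54 without Arid1a control replicate 2, and a difference of 0.07 with all libraries, 0.40 without the first of these and -0.34 without the second. The cause was not tested. With a replicate block, 60 zinc finger genes were called in cKO (48 higher, 12 lower), 48 with JQ1 and 29 for the difference, 6 and 8 co-repressors, 23 and 17 of the other families and 12 and 5 of the Zfp36 list. The deviations of same-numbered libraries had correlations of 0.03 in the Arid1a experiment and -0.04 in the JQ1 experiment over 10987 genes. With 2 libraries a group such a correlation cannot decide whether same-numbered libraries were paired, and the labels do not say.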
